A study of Arabidopsis thaliana with 12 samples.

Results

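Of the 33557 genes in the expression table, 117 were higher in seedlings of the Arabidopsis *bli* mutant than in WT and lower again in both double mutants, *bli ire1a* and *bli ire1b*. These 117 genes are called the members here. They were picked from the measured FPKM, the fragments assigned to a gene after scaling for transcript length and for the size of the library. A member had a mean FPKM in *bli* of at least 1 and at least 2 times that in WT, a mean in each double mutant of at most 60% of that in *bli*, and a higher FPKM in each *bli* library than in any library of the other genotypes. The 8 marker genes of the study were left out by the rule, and 2 of them, the marneral synthase gene *MRN1* and the secretory GTPase gene *SARA1A*, met all other criteria. Because these values chose the members, the level in *bli* against WT and in each double mutant against *bli* is described without a test. Tests are given for comparisons the rule did not make directly, which are each double mutant against WT and the double mutants against each other. The rule still read all these values and held WT to a lower limit than the double mutants. The tests against WT are therefore not independent of the choice of members.

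The libraries came from Columbia seedlings, aged 12 days by the sample labels (the methods of the study give a slightly older age), with 3 libraries each of *bli* (bli-1-/-), *bli ire1a* (bli-1-/-ire1a-/-), *bli ire1b* (bli-1-/-ire1b-/-) and WT. Each mutated gene was represented by a single T-DNA insertion allele, all 3 mutant genotypes carried the same *bli* insertion, and no *ire1* single mutant was among the libraries used here. The methods of the study call the 3 libraries of a genotype biological replicates, without saying how they were grown or pooled, and p-values measure the spread between these libraries.

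BLISTER (BLI) is a plant protein that binds the Polycomb-group histone methyltransferase CURLY LEAF. IRE1 is a sensor in the membrane of the endoplasmic reticulum (ER) with a kinase and an RNase domain, and in the unfolded protein response it splices the mRNA of the transcription factor bZIP60 and can degrade other mRNAs. *IRE1A* and *IRE1B* are its paralogs in Arabidopsis. Heat shock factors, ERF and ZAT regulators and abscisic acid response factors are activated by heat, wounding, touch, oxidative stress and drought, and many of their genes respond within minutes.

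*BLI* was at 9.95 to 11.8 FPKM in *bli*, 8.94 to 13.4 in *bli ire1a* and 9.75 to 11.8 in *bli ire1b*, against 16.8 to 17.7 in WT. *IRE1A* was at 4.45 to 5.68 FPKM in *bli ire1a* and 22.9 to 24.2 in *bli*, and *IRE1B* (listed as *IRE1-1*) was at 4.56 to 5.34 FPKM in *bli ire1b* and 10.7 to 11.4 in *bli*, so each gene was lower where it carried the insertion, and fragments of it were still counted. The FPKM of a library summed to between 972215 and 1098800, and organelle genes made up 0.146% to 1.63% of it. The study lists the sequences obtained per library, which by its numbering were fewest in *bli* replicate 3 and most in *bli ire1a* replicate 1. Fragment counts per gene are not given, so the number of fragments behind a single value is unknown. None of the members is on the list of 7 root and root hair markers or that of 5 green shoot markers, all of which were detected. The root markers summed to 41.9 to 61.7 FPKM in *bli*, 54.3 to 94.2 in *bli ire1a* and 27.6 to 68.7 in *bli ire1b*, against 83.0 to 129 in WT. The shoot markers summed to 28845 to 31068 FPKM in *bli*, 33441 to 37008 in *bli ire1a* and 28664 to 31834 in *bli ire1b*, against 42763 to 46611 in WT. Both sums were thus lower in every *bli* library than in every WT library. On a list of 20 floral genes, 1 gene, *ADPG1*, was a member. The floral genes summed to 69.0 to 79.9 FPKM in *bli*, 38.9 to 47.5 in *bli ire1a* and 58.3 to 65.3 in *bli ire1b*, against 29.0 to 36.4 in WT. Of the 15 other floral genes tested, 8 rose and 2 fell in *bli* against WT (4.19% and 5.1% of all tested genes). The part of these tissue differences in the members' levels was not tested. In whole seedlings, a change in the number of cells of a type cannot be told apart from a change of RNA per cell.

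The members were mostly genes of moderate expression. Their mean FPKM had a median of 10.1 in *bli* (1.06 to 327), 3.50 in *bli ire1a* and 4.20 in *bli ire1b*, against 2.63 in WT. Set against its own *bli* mean, a member was at a median of 40.4% in *bli ire1a* (2.51% to 59.3%), 47.5% in *bli ire1b* (12.2% to 59.1%) and 29.7% in WT (0% to 49.8%). The *bli* mean was a median of 3.37 times the WT mean over the 115 members detected in WT (2.01 to 62.4 times), and the lowest *bli* library was a median of 1.36 times the highest library of the other genotypes. These numbers restate the rule and describe how deep inside its limits the members lay. Of 993 genes with a *bli* mean of at least 1 and at least 2 times WT, 347 were at or under 60% of *bli* in *bli ire1a* alone, 75 in *bli ire1b* alone, 202 in both (with libraries free to overlap) and 369 in neither.

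The members varied between libraries of the same genotype. The median member was at 98.4%, 108% and 93.3% of its *bli* mean in the 3 *bli* libraries, 41.7%, 43.8% and 36.1% in the *bli ire1a* libraries, 42.8%, 44.0% and 51.7% in the *bli ire1b* libraries and 28.8%, 21.9% and 32.8% in the WT libraries. Replicate 2 was the highest *bli* library for 64 of the 117 members, and replicate 2 was the lowest WT library by this median. The coefficient of variation of the *bli* libraries had a median of 15.8%.

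**Figure D1:**
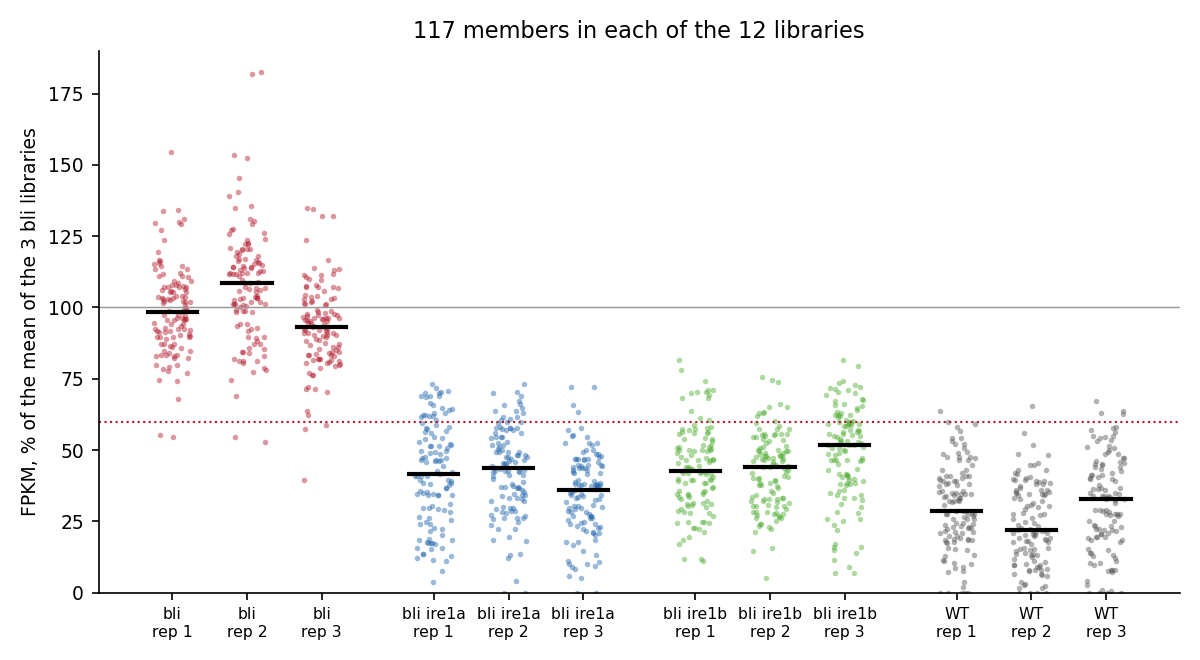
FPKM of each of the 117 members (points) in each of the 12 libraries, as a percentage of that member's mean over the 3 *bli* libraries. Black bars are medians, the dotted line is the 60% limit of the rule, and the medians lie at 93.3% to 108% in *bli*, 36.1% to 43.8% in *bli ire1a*, 42.8% to 51.7% in *bli ire1b* and 21.9% to 32.8% in WT.

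At the edges of the rule the values ran on without a gap. Just inside the 60% limit in *bli ire1a* were AT2G44370 (59.3% of *bli*), *RTL1* (59.2%) and *MLO12* (59.1%), and just outside were *PIT1* (61.1%), AT4G15690 (61.6%) and *EXO* (62.5%). In *bli ire1b*, *FLS2* (here flavonol synthase 2, AT5G63580, not the flagellin receptor) at 59.1%, *WRKY48* at 59.0% and *CAX4* at 58.4% were inside, and *PGIP2* (60.2%), AT4G01920 (60.5%) and *ANAC087* (60.9%) were outside. AT1G76590, *ERF6* and *GPAT1* passed the limit against WT at 2.01, 2.03 and 2.04 times the WT mean, whereas *ABCG1*, *PSK5* and AT5G22460 missed it at 1.97, 1.94 and 1.93 times.

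The upstream sequences that held a heat shock element of 3 units are shown first, because they join regulators from different groups described below. The heat shock element is the binding site of heat shock factors and is built of alternating GAA and TTC units. It was searched in the 250 bases before the annotated start of each gene in RefSeq's TAIR10.1 genome, on both strands, together with other stress elements. Members with 3 alternating units (each spaced by any 2 bases) were *HSFA7A* (chr3:19264975-19265034), *ERF-1* (AT4G17500, chr4:9759104-9759163) and *DREB2A* (chr5:1602017-1602076), all on the plus strand. The stretch of 60 bases around the match is printed with the matching units in capitals. *HSFA7A* held a second such match, outside the stretch shown.
HSFA7A: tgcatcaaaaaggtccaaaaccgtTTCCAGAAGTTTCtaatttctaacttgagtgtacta
ERF-1: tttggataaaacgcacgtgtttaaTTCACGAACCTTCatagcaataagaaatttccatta
DREB2A: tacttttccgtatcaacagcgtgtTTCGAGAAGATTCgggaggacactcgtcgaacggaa

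A match of 3 units was present in 3 of 117 members (2.56%) and in 86 of 21503 tested genes with an annotated nuclear start (0.400%). The form of 2 units (GAANNTTC or TTCNNGAA, which also matches within every form of 3 units) was in 23 members (19.7%) and in 15.8% of tested genes. *RHL41*, also called *ZAT12*, a zinc finger regulator of oxidative and light stress responses, had 2 matches of that form, which stand in capitals in the stretch chr5:24102681-24102740 on the plus strand.
RHL41: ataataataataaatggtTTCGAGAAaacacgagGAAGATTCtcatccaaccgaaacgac

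Elements of the ER stress response were rare upstream of the members and of the tested genes alike. The core of the UPR element (TGACGTGG) was in 0 of 117 members and in 1.50% of tested genes, and the ER stress element was in 2 members (1.71%), AT4G32480 and *GDPD2*, and in 0.846% of tested genes. The core of the abscisic acid element (ACGTG, which lies within the G-box CACGTG) was in 43 members (36.8%) and 24.0% of tested genes, the G-box in 9.40% and 7.29%, and the W-box core of WRKY factors (TTGAC) in 50.4% and 45.1%. The GCC box of ERF factors (GCCGCC) was in 1 member (0.855%) and in 1.94% of tested genes, the dehydration element core (CCGAC) in 7.69% and 12.8%, and the core of the rapid stress response element (CGCGTT) in 3.42% and 2.84%. A match to these letters is a description of the window and was not tested for binding.

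**Figure D2:**
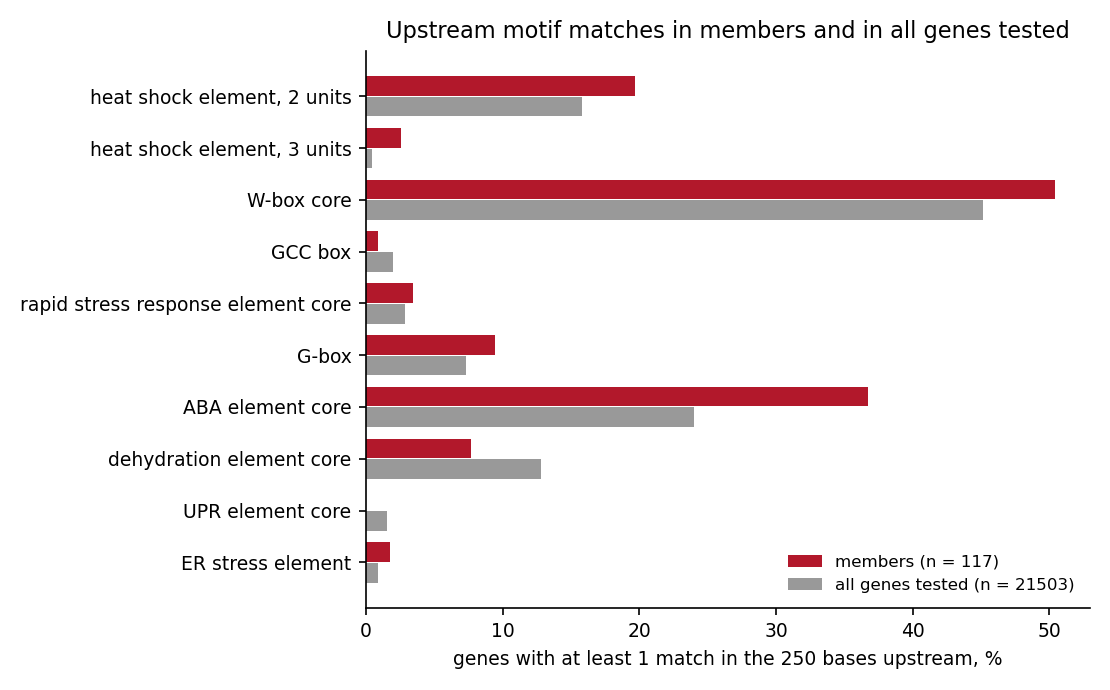
Share of genes with at least 1 match of each element in the 250 bases upstream (horizontal axis, %), for the 117 members (upper bar of each pair) and the 21503 tested genes with an annotated nuclear start (lower bar). The ABA element core was in 36.8% of members and 24.0% of tested genes. The UPR element core was in 0% and 1.50%, and the ER stress element in 1.71% and 0.846%.

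In gene structure the members had a shorter median transcript and fewer exons than the tested genes. Of 115 protein-coding members, 35 (30.4%) had a single exon, against 17.0% of tested protein-coding genes, and the median number of exons was 2 in members and 4 in tested genes. The median length of the longest transcript was 1405 bases in members and 1706 in tested genes. The members lay on all 5 chromosomes (30, 24, 20, 21 and 22 on chromosomes 1 to 5). In 6 cases a member had another member within 2 table genes of it. *ERF6* and *ERF-1* were neighbours on chromosome 4, 5041 bases apart on opposite strands, the glutaredoxin genes AT4G15670 and AT4G15680 were neighbours 1803 bases apart, and the C1 domain genes AT2G44370 and AT2G44380 were 244 bases apart. AT2G05914 and AT2G05915 overlapped on opposite strands, and since the sources used here do not say that strand was used in counting, their reads cannot be told apart. An annotated gene of either strand overlapped 22 members, and 4 members (AT2G41640, *ABCG43*, *AAE5* and AT1G51820) shared at least 10% of the 30-base words of their transcript with another gene, so their FPKM depends on how shared reads were assigned.

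The largest role group was made of transcription factors, with 24 members. They were at a median of 44.5% of *bli* in *bli ire1a*, 46.9% in *bli ire1b*, against 31.0% in WT. Of these, *RRTF1* (ERF109), an ERF factor of redox and wound responses, lay furthest below *bli* in *bli ire1b*. It was at 6.53, 7.20 and 3.25 FPKM in *bli*, 1.15, 2.52 and 0.292 in *bli ire1a*, 1.40, 0.288 and 0.386 in *bli ire1b*, and 0.520, 0.163 and 0.599 in WT. Both double mutants overlapped with WT, and *bli* replicate 3 was the lowest *bli* library by a wide margin. *RHL41* was at 27.6, 23.3 and 20.0 FPKM in *bli*, 12.2, 17.3 and 5.42 in *bli ire1a*, 5.0, 5.97 and 7.67 in *bli ire1b*, and 8.41, 3.48 and 6.33 in WT. Its *bli ire1a* libraries spread over the whole gap between *bli* and WT, while those of *bli ire1b* lay among the WT libraries.

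The ethylene response factors were the most strongly expressed regulators of the group. *ERF-1* was at 117, 117 and 96.1 FPKM in *bli*, 56.5, 53.0 and 41.5 in *bli ire1a*, 61.6, 53.4 and 64.9 in *bli ire1b*, and 41.9, 38.1 and 49.2 in WT. The *bli ire1b* libraries were all above WT, and those of *bli ire1a* overlapped with it. *ERF6*, which acts in oxidative stress and growth restriction, was at 78.9, 66.6 and 67.8 FPKM in *bli*, 44.8, 33.0 and 23.6 in *bli ire1a*, 35.4, 27.9 and 36.5 in *bli ire1b*, and 38.5, 18.6 and 47.7 in WT, where both double mutants lay within the wide WT range. The drought and heat regulator *DREB2A* was at 19.3, 16.8 and 12.4 FPKM in *bli*, 6.13, 7.49 and 3.37 in *bli ire1a*, 4.33, 3.74 and 4.52 in *bli ire1b*, and 4.34, 3.10 and 4.48 in WT. Both double mutants overlapped with WT for *DREB2A*. The other ERF-type members were *DREB26*, AT1G77640 and the ethylene pathway factor *ERF1* (AT3G23240, a different gene from *ERF-1*).

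Of the rapid stress list, which holds 38 regulators and outputs of touch, wounding and general stress, 15 were members. They were at a median of 47.6% of *bli* in *bli ire1a*, 46.7% in *bli ire1b*, against 29.7% in WT. Besides the ERF and ZAT factors they included *PUB23*, a ubiquitin ligase that dampens immune signalling, *BAP1*, a repressor of cell death, *MLO12*, a membrane protein of powdery mildew susceptibility, *MYB15*, *WRKY48*, *PHI-1* and the zinc finger gene AT3G46080 (ZAT8). *PUB23* was at 38.8, 34.3 and 31.2 FPKM in *bli*, 23.9, 19.9 and 15.0 in *bli ire1a*, 15.4, 11.4 and 14.1 in *bli ire1b*, and 12.2, 12.3 and 15.3 in WT. Its level in *bli ire1b* overlapped with WT and in *bli ire1a* lay mostly above it. *BAP1* averaged 11.1 ± 1.90 FPKM in *bli*, 4.46 ± 1.75 in *bli ire1a*, 4.11 ± 1.34 in *bli ire1b*, against 2.85 ± 0.923 in WT (SD, n = 3 each), and both double mutants overlapped with WT. In the *bli ire1a* libraries, 13 of the 15 rapid stress members were highest in replicate 1 and 0 in replicate 3, where their median was 69.9% of the *bli ire1a* mean.

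The 23 rapid stress genes that are not members were left over by a rule that read the same *bli*, double mutant and WT values, so their counts, like those of the other lists without their members, describe the genes the rule did not take and are no independent test of the list. A gene was called at a fold of at least 2 and an adjusted p (Benjamini-Hochberg) no higher than 0.05 in limma over all 21714 genes tested. In *bli ire1b* against *bli*, 7 of the 23 fell and 0 rose (0.88% and 0.193% of all tested genes), among them the touch gene *TCH4* (log2 difference -1.89) and the zinc finger gene *STZ* (-1.58). In *bli ire1a* against *bli*, 2 of the 23 fell and 0 rose (1.6% and 1.42% of all tested genes), and these were *ZAT6* (-1.15) and *ERF104* (-1.09). In *bli* against WT, 3 of the 23 rose, *CEJ1*, *ERF2* and *TCH4*, and 0 fell (4.19% and 5.1% of all tested genes). The median log2 difference of the 23 was -0.87 in *bli ire1b* against *bli* and -0.65 in *bli ire1a* against *bli*, where the median of all genes was 0.00 and 0.01. At an unadjusted p of at most 0.05, with no fold required, limma placed 13 of the 23 below *bli* in *bli ire1b* and 11 in *bli ire1a*, and 0 above it in either, while 12 lay above and 0 below WT in *bli*. The list was also drawn up with results of these data known, and both comparisons share the *bli* libraries.

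From the heat list of 40 heat shock factors, chaperones and *MBF1C*, 4 genes were members, and 37 of the 40 could be tested. The small heat shock protein gene AT1G59860 was at 24.8, 35.1 and 9.12 FPKM in *bli*, 4.03, 6.93 and 2.57 in *bli ire1a*, 2.56, 4.92 and 3.71 in *bli ire1b*, and 4.36, 3.14 and 3.17 in WT. Its *bli* libraries differed widely among themselves, and both double mutants overlapped with WT. A second small heat shock protein gene, AT2G29500, was at 20.0, 19.9 and 16.8 FPKM in *bli* and between 7.56 and 13.4 in all other libraries. The heat shock factor gene *HSFA7A* was at 27.4, 35.9 and 32.0 FPKM in *bli*, 16.4, 17.8 and 21.0 in *bli ire1a*, 15.6, 17.7 and 19.9 in *bli ire1b*, and 5.87, 12.2 and 11.5 in WT. The double mutants of *HSFA7A* overlapped with each other and lay wholly above WT, at log2 differences of 0.96 (95% interval 0.44 to 1.47) for *bli ire1a* and 0.90 (0.39 to 1.42) for *bli ire1b*. Their adjusted p-values in limma were 0.0205 and 0.0108, but both missed the fold of 2. *MBF1C*, a coactivator of heat tolerance, averaged 45.5 ± 10.6 FPKM in *bli*, 26.2 ± 5.09 in *bli ire1a*, 17.6 ± 3.69 in *bli ire1b*, against 21.5 ± 6.11 in WT (SD, n = 3 each), and both double mutants overlapped with WT.

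Few other genes of the heat list passed the test. Of the 33 other heat genes tested, 1 fell in *bli ire1a* against *bli* and 1 in *bli ire1b* against *bli*, in both cases the heat shock factor gene *HSFA2* (log2 differences -2.00 and -2.48, adjusted p = 0.0434 and 0.0397 from limma), and in *bli* against WT 2 rose (*HSFA2* and *HSFA8*) and 2 fell (*HSFA6B* and *HSFC1*). *HSFA2* was at 7.44, 7.64 and 2.11 FPKM in *bli*, 1.50, 1.46 and 0.715 in *bli ire1a*, 1.22, 0.501 and 0.834 in *bli ire1b*, and 1.03, 2.18 and 0.493 in WT. It missed membership because *bli* replicate 3 lay below WT replicate 2. The chaperone genes *HSP101*, *HSP90.1* and *HSP70* did not pass in *bli* against WT or in either double mutant against *bli*, and in *bli ire1b* against *bli* 10 of the 33 were lower and 0 higher at an unadjusted p of at most 0.05.

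**Figure D3:**
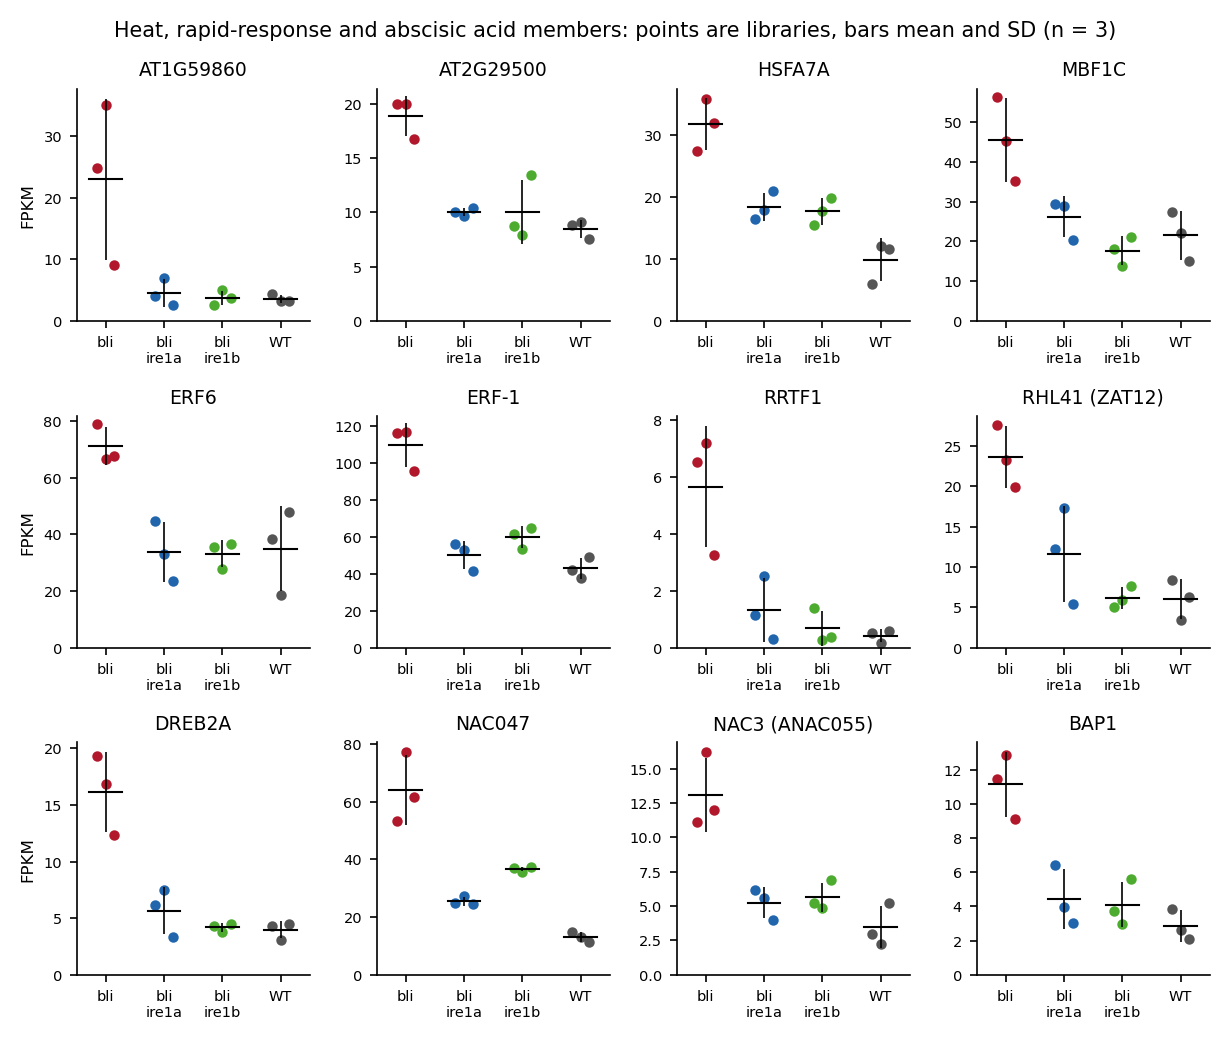
FPKM (vertical axes, linear, from 0) of 12 members from the heat, rapid stress and abscisic acid lists in *bli*, *bli ire1a*, *bli ire1b* and WT. Points are the 3 libraries of a genotype and bars their mean and SD, and in each panel the 3 *bli* libraries lie above the 9 others, as the rule required.

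From the list of 22 abscisic acid and drought genes, 6 were members. They were at a median of 36.0% of *bli* in *bli ire1a*, 41.9% in *bli ire1b*, against 22.5% in WT. *NAC047*, a NAC factor of senescence and flooding responses, was at 53.3, 77.2 and 61.5 FPKM in *bli*, 24.7, 27.3 and 24.5 in *bli ire1a*, 37.0, 35.7 and 37.3 in *bli ire1b*, and 14.9, 12.9 and 11.3 in WT. The 4 genotypes of *NAC047* did not overlap, with *bli* highest, then *bli ire1b*, *bli ire1a* and WT. The 3 *bli* libraries of *HIS1-3*, a linker histone gene of drought responses, lay close together. It was at 25.7, 26.9 and 27.5 FPKM in *bli*, 9.23, 7.84 and 12.5 in *bli ire1a*, 6.10, 16.1 and 10.5 in *bli ire1b*, and 4.77, 3.63 and 7.72 in WT, where *bli ire1a* was wholly above WT and *bli ire1b* overlapped with it. *M17*, a late embryogenesis abundant protein gene, averaged 6.32 ± 0.580 FPKM in *bli*, 1.48 ± 0.784 in *bli ire1a*, 1.69 ± 0.529 in *bli ire1b*, against 0.557 ± 0.572 in WT (SD, n = 3 each). The other members of the list were *NAC3* (ANAC055), *DREB2A* and *CYP707A4*, whose enzyme breaks down abscisic acid.

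Of the 16 abscisic acid genes outside the members, 2 rose in *bli* against WT, *NAC019* and the lipid transfer protein gene *LTP3*, and 5 fell, *COR15A*, *NCED3*, *KIN2*, *LTI78* and *RAB18*. In *bli ire1a* against *bli*, *LTP3* fell (-2.64 on the log2 scale) and *RAB18* rose (2.46), and in *bli ire1b* against *bli* *RD26* was the 1 gene of the 16 that fell (-1.06). In that comparison the median log2 difference of the 16 was -0.60, and at an unadjusted p of at most 0.05 in limma 7 were lower and 0 higher.

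Cell wall enzymes formed a role group of 6 members with the lowest WT share of any role group of 6 or more, a median of 13.7% of *bli*, where *bli ire1a* and *bli ire1b* were at medians of 51.8% and 50.8%. Xyloglucan endotransglucosylase/hydrolases cut and rejoin the xyloglucan chains of the wall. *XTR6* (XTH23) was at 47.2, 65.9 and 57.6 FPKM in *bli*, 40.2, 34.0 and 21.7 in *bli ire1a*, 26.8, 21.4 and 41.1 in *bli ire1b*, and 4.91, 3.37 and 4.21 in WT, so that the double mutants overlapped with each other and were far above WT. *XTH18* was at 70.8, 82.9 and 81.5 FPKM in *bli*, 56.3, 38.7 and 34.2 in *bli ire1a*, 58.2, 37.8 and 39.7 in *bli ire1b*, and 26.0, 17.5 and 26.4 in WT. Both double mutants of *XTH18* were above WT in each library and overlapped with each other. The pectin methylesterase gene *ATPMEPCRB* averaged 67.8 ± 2.45 FPKM in *bli*, 35.3 ± 9.94 in *bli ire1a*, 35.6 ± 7.64 in *bli ire1b*, against 13.6 ± 5.41 in WT (SD, n = 3 each). *XTH25* was at 1.00 to 1.31 FPKM in *bli* and 0.421 to 0.753 in both double mutants, and was listed at 0 in 2 WT libraries. The others were *FRA8*, a xylan synthesis gene, and *ADPG1*, a polygalacturonase gene of pod and anther opening.

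The member with the highest level was *ERD5*, which encodes the proline dehydrogenase of mitochondrial proline breakdown. It was at 222, 455 and 305 FPKM in *bli*, 130.0, 112 and 99.8 in *bli ire1a*, 122, 146 and 192 in *bli ire1b*, and 64.8, 98.4 and 103 in WT. The *bli* libraries of *ERD5* differed by more than 2 times, and *bli ire1b* lay wholly above WT. It is on a list of 16 senescence, carbon starvation and cell death genes with 2 other members, *MIOX4* (2.82, 9.27 and 3.16 FPKM in *bli*) and *CEP1* (2.50, 4.65 and 2.44 FPKM in *bli*), a cysteine protease of developmental cell death. All 3 were highest in *bli* replicate 2, at a median of 145% of their *bli* mean. Of the 12 other genes tested on the list, 7 rose and 1 fell in *bli* against WT and 3 fell in *bli ire1a* against *bli*. The 1 gene that fell in *bli ire1b* against *bli* was the NAC factor gene *NAP* (log2 difference -1.23), which is also the gene that fell in *bli* against WT (-1.01). Also among the 10 most expressed members were *MLP328* (203 to 282 FPKM in *bli*), the noncoding RNA gene AT1G67105 (101 to 143), *AAE5*, an acyl activating enzyme gene (95.9 to 135), AT4G32480 (72.1 to 95.2) and AT3G28220 (62.1 to 87.6).

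Hormone metabolism was represented by *ACS7*, which makes the ethylene precursor, *GA2OX2*, which inactivates gibberellins, and *CYP707A4*. *GA2OX2* was at 7.32, 7.17 and 7.02 FPKM in *bli*, 3.73, 3.41 and 3.35 in *bli ire1a*, 5.03, 3.60 and 3.55 in *bli ire1b*, and 2.55, 2.84 and 3.10 in WT, and both double mutants were above WT in each library. Of the 26 jasmonate genes only *JAZ7*, a repressor of jasmonate signalling, and *NATA1*, an ornithine acetyltransferase gene of defence, were members. Among the 24 other jasmonate genes, 7 rose and 1 fell in *bli* against WT, 5 fell in *bli ire1a* against *bli* and 0 in *bli ire1b* against *bli*, where limma gave a median log2 difference of -0.42 for the 24 and an unadjusted p of at most 0.05 for 6, all lower. From the 19 canonical genes of the unfolded protein response outside the marker genes, none was a member. The marker genes were left out by the rule, and the study counts 1 that met all other criteria, *SARA1A*, as a canonical ER stress gene. Its mean was 3.63% of the *bli* mean for *bli ire1a* and 45.1% for *bli ire1b*. *LTP4*, a non-canonical marker, missed the criteria because *bli ire1b* replicate 3 (59.6 FPKM) lay above *bli* replicate 1 (56.8 FPKM). In *bli* against WT 7 of the 19 rose, with *PDIL1-2* (log2 difference 3.01) at the top, and in *bli ire1a* against *bli* 3 fell, *PDIL1-2*, *NAC062* and *NAC089*. In *bli ire1b* against *bli* 0 of the 19 passed in limma, their median log2 difference was 0.02, and the unadjusted p was at most 0.05 for 3 that were higher and 4 that were lower, against 0 higher and 14 lower in *bli ire1a* against *bli*.

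Smaller groups followed the same description. The role group of 8 transporters (among them *SUC5*, *YSL7* and *PUP10*) was at medians of 40.8% of *bli* in *bli ire1a*, 52.0% in *bli ire1b*, against 34.0% in WT, with the *bli ire1a* mean below the *bli ire1b* mean in 7 of 8. In the group of 7 receptors, kinases and ubiquitin ligases the medians were 54.0%, 49.5% and 38.1%. The 2 glutaredoxins, small redox proteins, were AT4G15680 (30.7 to 35.6 FPKM in *bli*, 16.7 to 18.5 in *bli ire1a*, 17.9 to 20.6 in *bli ire1b* and 7.28 to 8.30 in WT) and AT4G15670, and 13 other glutaredoxins were tested, of which 4 rose and 3 fell in *bli* against WT, 2 rose in *bli ire1a* against *bli* and 0 passed in *bli ire1b* against *bli* by limma (1 higher and 5 lower at an unadjusted p of at most 0.05). The 3 jacalin-type lectin members were AT1G52000 (36.3 to 49.1 FPKM in *bli*, 11.4 to 23.5 in *bli ire1a*, 21.6 to 26.9 in *bli ire1b* and 5.72 to 14.7 in WT), *MBP2* and *JAL23*, and *bli ire1a* had the lower mean of the double mutants in all 3. Of the 7 other jacalin genes tested, 2 rose and 0 fell in *bli* against WT, with a median log2 difference of 0.28. In *bli ire1a* against *bli* 1 of the 7 fell, and in *bli ire1b* against *bli* 0 passed (medians -0.27 and -0.39). The triterpene members were *CYP705A12*, a P450 gene of the marneral cluster that also holds *MRN1*, and *LAS1*, which encodes lanosterol synthase. Of the 4 other triterpene genes tested, 0 passed in *bli* against WT, where their median log2 difference was 0.38. In *bli ire1a* against *bli* 1 of the 4 fell, and in *bli ire1b* against *bli* 0 passed (medians -0.82 and -0.94).

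The next question was whether the members returned to the WT level once *IRE1A* or *IRE1B* was also mutated. In *bli ire1a* against WT, 13 of the 117 members (11.1%) rose and 0 fell, where 1.37% of the 21714 tested genes rose and 1.54% fell. In *bli ire1b* against WT, 30 members (25.6%) rose and 0 fell, where 3.18% of tested genes rose and 7.08% fell. The 13 became 7 in a fit of *bli ire1a* and WT alone, and the 30 became 17 when 1 was added to the FPKM in place of 0.1. At an unadjusted p of at most 0.05 in limma, with no fold required, 42 members lay above WT and 2 below it for *bli ire1a*, and 61 above and 0 below for *bli ire1b*. The share of all tested genes at this looser cutoff was not counted, so these counts have no background. The median member lay 0.49 above WT on the log2 scale in *bli ire1a* and 0.63 in *bli ire1b*, while the median of all tested genes was 0.00 in both. The rule allowed a double mutant up to 60% of *bli* but WT only up to 50%, and both comparisons use the same WT libraries. Part of this excess over the background therefore follows from the choice of members, which the p-values do not account for.

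All 117 members passed the filter on low values (a mean of at least 0.25 FPKM over 12 libraries), which the *bli* level of at least 1 guarantees. The members above WT in both double mutants numbered 12, 18 were called in *bli ire1b* alone, 1 (AT4G27654) in *bli ire1a* alone and 86 in neither, which does not show that these were at the WT level. The log2 difference to WT was above 0 for 103 members (88.0%) in *bli ire1a* and 104 (88.9%) in *bli ire1b*. Among all tested genes the shares were 50.7% and 49.8%. The unequal limits of the rule bear on the members' shares as well. No transcription factor of the 24 passed in *bli ire1a* against WT in limma, where their median log2 difference was 0.54 and 7 were higher at an unadjusted p of at most 0.05, and 4 passed in *bli ire1b*, *NAC047*, *MYB15*, AT1G77640 and *BRC1*, a repressor of axillary buds. *MYB15*, a regulator of cold and lignin genes, was at 8.85, 10.2 and 5.94 FPKM in *bli*, 2.90, 2.76 and 1.88 in *bli ire1a*, 5.90, 2.32 and 5.04 in *bli ire1b*, and 1.53, 1.30 and 1.82 in WT. Both double mutants of *MYB15* were above WT in each library and overlapped with each other. Of the 4 heat list members 0 passed in either double mutant by limma, and 1 in each, *HSFA7A*, was higher at an unadjusted p of at most 0.05.

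Members that stayed above WT in both double mutants were led by the overlapping pair AT2G05914 and AT2G05915, *XTR6* and *XTH25*. AT2G05915, a short protein-coding gene, was at 9.41, 9.24 and 15.2 FPKM in *bli*, 2.11, 3.16 and 2.01 in *bli ire1a*, 2.22, 3.06 and 5.45 in *bli ire1b*, and 0, 0.750 and 0 in WT, so that both double mutants were above WT and overlapped with each other. *XTR6* rose by 2.88 ± 0.26 (log2, standard error) when *bli ire1a* was set against WT and by 2.77 ± 0.26 for *bli ire1b*, with limma adjusted p-values of 0.000134 and 2.01e-05, in 3 of 3 libraries each time. *XTH25* rose by 2.27 and 2.32 (adjusted p = 0.00446 and 0.00103 from limma), but from WT libraries of which 2 were listed at 0, so that the size depends on the added 0.1, and both calls were lost when 1 was added (0.58 and 0.59). *NATA1* rose by 1.71 and 4.65 (limma adjusted p = 0.0201 and 1.31e-05), where the call in *bli ire1a* was lost without WT replicate 3 or *bli ire1a* replicate 3, and when 1 was added (1.15). The kinase gene AT5G11410 rose by 1.41 and 2.39, *ACS7* by 1.44 and 1.46, *ATPMEPCRB* by 1.43 and 1.46, the pentose phosphate pathway gene *PGL1* by 1.32 and 1.25, the glutaredoxin gene AT4G15680 by 1.17 and 1.31, *LAS1* by 1.12 and 2.72 and the glycosyltransferase gene *UGT71B5* by 1.10 and 2.07, each time with the *bli ire1a* difference first. The call of *LAS1* in *bli ire1a* was lost without WT replicate 3 or *bli ire1a* replicate 1 or 2, and when 1 was added (0.44). AT4G27654, of unknown function, rose by 2.17 ± 0.63 (log2, standard error) in *bli ire1a*, with a limma adjusted p of 0.0427, and was at 6.51, 5.77 and 2.81 FPKM there, 3.91, 2.81 and 0.858 in *bli ire1b* and 1.42, 0.298 and 1.96 in WT. Its call was lost in limma without *bli* replicate 1, 2 or 3, *bli ire1a* replicate 1 or 2, *bli ire1b* replicate 2 or WT replicate 1 or 2.

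AT1G21528 and *ADPG1* were listed at 0 in all 3 WT libraries, which gives no fold. AT1G21528, of unknown function, was at 23.4, 16.8 and 32.7 FPKM in *bli*, only 3.84, 0 and 0 in the *bli ire1a* libraries, and 6.0, 10.7 and 11.5 in *bli ire1b*. *ADPG1* was at 1.24, 2.17 and 1.40 FPKM in *bli*, 0.120, 0 and 0 in the *bli ire1a* libraries, and 0.389, 0.841 and 0.966 in *bli ire1b*. Both were called above WT in *bli ire1b* (adjusted p = 0.000838 and 0.00061 from limma) and not in *bli ire1a*.

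Below WT the members gave few values. The *bli ire1a* mean was below the WT mean for 16 members and the *bli ire1b* mean for 16. *JAL23* was at 2.77, 2.93 and 2.76 FPKM in *bli ire1a* against 6.65, 4.48 and 5.19 in WT, a log2 difference of -0.90 (95% interval -1.24 to -0.57, adjusted p = 0.00353 from limma) that missed the fold of 2 although the libraries did not overlap. AT1G67105 was at 18.2, 26.7 and 21.2 FPKM in *bli ire1a* against 48.0, 32.9 and 34.4 in WT, a log2 difference of -0.80 (adjusted p = 0.0121 from limma).

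**Figure D4:**
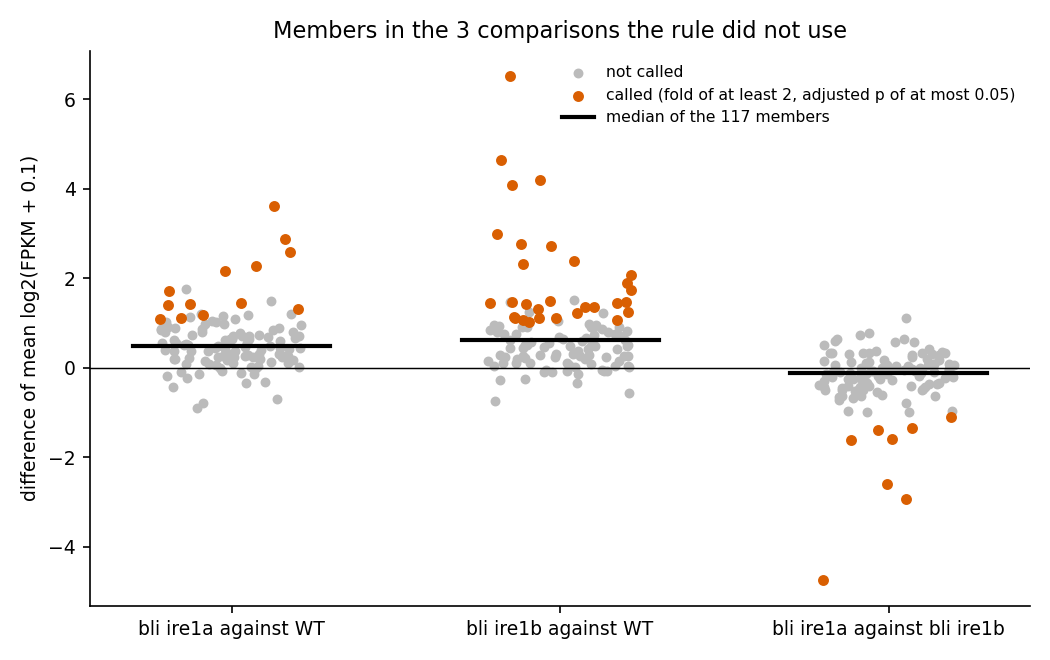
Difference of mean log2(FPKM + 0.1) of each of the 117 members (points) in *bli ire1a* against WT, *bli ire1b* against WT and *bli ire1a* against *bli ire1b*. Orange points passed a fold of at least 2 and an adjusted p of at most 0.05 in limma (13, 30 and 8 members), black bars are the medians (0.49, 0.63 and -0.12), and the 8 called in the last comparison all lie below 0.

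The double mutants were then compared with each other. In *bli ire1a* against *bli ire1b*, 8 members (6.84%) fell and 0 rose in limma, where 0.764% of tested genes fell and 1.73% rose. The 8 became 3 when 1 was added to the FPKM in place of 0.1. At an unadjusted p of at most 0.05 in limma there were 19 members lower and 2 higher, counts with no share of all tested genes beside them. The *bli ire1a* mean was below the *bli ire1b* mean for 75 members and above it for 42, with a median log2 difference of -0.12. The log2 difference was above 0 for 41 members (35.0%), against 50.3% of all tested genes. The remaining 109 members were not called, which does not show that the double mutants were alike.

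*NATA1* had the highest *bli* level of the 8. It was at 60.9, 51.2 and 64.4 FPKM in *bli*, 2.30, 2.36 and 6.02 in *bli ire1a*, 18.3, 18.7 and 46.8 in *bli ire1b*, and 1.24, 0.949 and 0.637 in WT, so that the 4 genotypes did not overlap. The log2 difference of *bli ire1a* against *bli ire1b* was -2.94 (95% interval -3.85 to -2.02, adjusted p = 0.00159 from limma). *LAS1* was at 5.47, 6.70 and 5.56 FPKM in *bli*, 0.722, 1.08 and 0.602 in *bli ire1a*, 2.60, 1.96 and 3.29 in *bli ire1b*, and 0.421, 0.369 and 0.169 in WT, also without overlap, with a log2 difference of -1.60 (adjusted p = 0.00673 from limma). AT2G05914, a long noncoding RNA gene, was at 1.05, 2.13 and 1.38 FPKM in *bli ire1a* against 4.17, 4.65 and 5.21 in *bli ire1b* (log2 difference -1.61, limma adjusted p = 0.0139).

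The others were lower in *bli ire1a* by a smaller amount or from low levels. The GDSL lipase gene AT1G54020 was at 0.579, 0.566 and 1.43 FPKM in *bli ire1a* against 2.72, 2.32 and 1.76 in *bli ire1b* (log2 difference -1.40, limma adjusted p = 0.0182). *CEP1* was at 0.505, 0.389 and 0.766 FPKM in *bli ire1a* against 1.23, 1.51 and 1.82 in *bli ire1b* (log2 difference -1.34, limma adjusted p = 0.0187). *JAL23* was at 2.77, 2.93 and 2.76 FPKM in *bli ire1a* against 5.83, 5.76 and 7.0 in *bli ire1b* (log2 difference -1.10, limma adjusted p = 0.00143). For *CEP1* the *bli ire1a* libraries overlapped with WT (0.684, 0.476 and 0.612 FPKM), and for *JAL23* they lay below WT.

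A further 7 members had an adjusted p in limma of at most 0.05 between the double mutants and missed the fold of 2, and all 7 were lower in *bli ire1a*. The share of all tested genes at this cutoff was not counted, so the 7 have no background. *FLS2* (flavonol synthase 2) was at 3.23, 3.34 and 3.20 FPKM in *bli ire1a* against 5.62, 7.07 and 7.17 in *bli ire1b* (log2 difference -0.99, limma adjusted p = 0.00864). AT5G11410 was at 4.74, 3.14 and 4.19 FPKM in *bli ire1a* against 8.13, 8.19 and 7.48 in *bli ire1b* (log2 difference -0.98, limma adjusted p = 0.00496). *UGT71B5* and AT1G67105 had log2 differences of -0.97 and -0.95, and in these 4 the libraries of the double mutants did not overlap. The other 3 were AT1G14120 (-0.64), AT3G46700 (-0.62) and *NAC047* (-0.52), and for *NAC047* the double mutants did not overlap either.

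**Figure D5:**
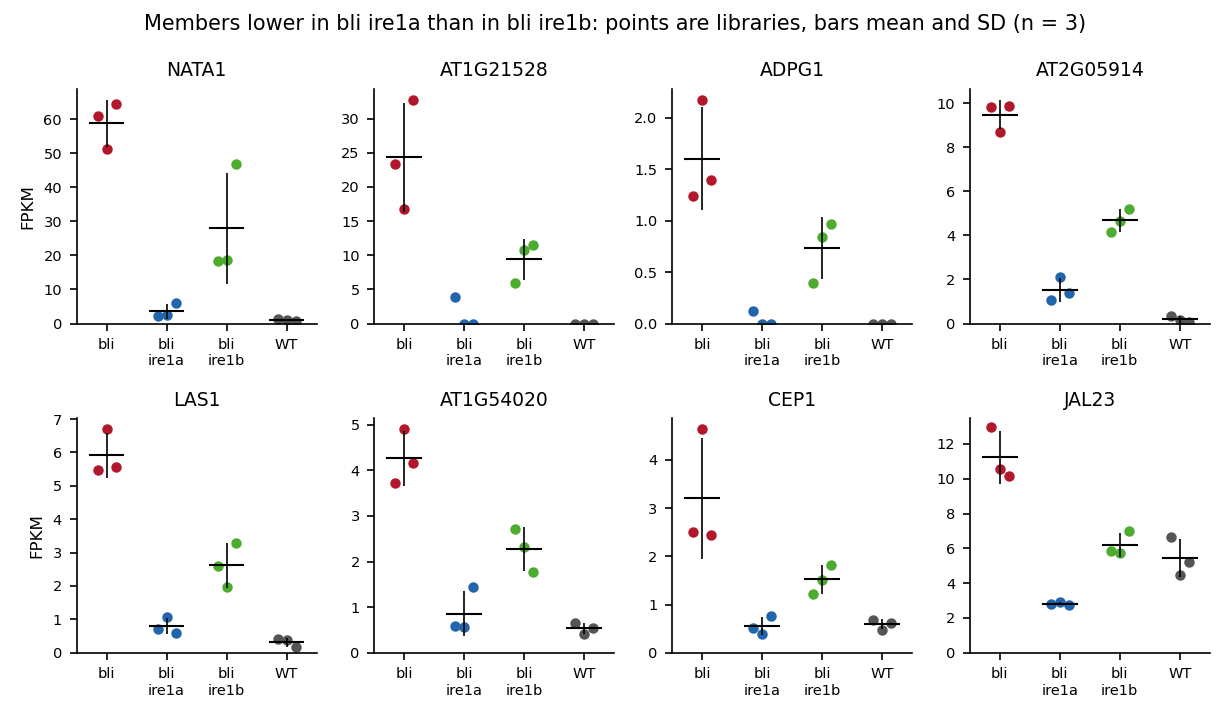
FPKM (vertical axes, linear, from 0) in *bli*, *bli ire1a*, *bli ire1b* and WT of the 8 members for which *bli ire1a* fell below *bli ire1b* in the test. Points are the 3 libraries of a genotype, bars are mean and SD and are left out where a library is listed at 0, and in each panel the *bli ire1a* points lie below the *bli ire1b* points.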

How the data were processed

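The authors removed low-quality reads with SeqPrep and Sickle and aligned the rest to TAIR10 with TopHat, and the deposited table holds gene-level FPKM of each of the 12 libraries. The program that wrote these FPKM values, and whether strand was used, are not given in the sources used here. All value columns were used. The members and the gene lists were chosen with earlier results of these data known, and the role groups were formed from the members.

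The test was limma 3.58.1 in R 4.3.3 on log2(FPKM + 0.1), with a mean-variance trend and all 4 genotypes in a single fit (8 residual degrees of freedom), over the 21714 genes with a mean of at least 0.25 FPKM. Differences are on the log2(FPKM + 0.1) scale, which understates the change of genes with low values. P-values were adjusted by Benjamini-Hochberg over all tested genes, and a call needed a fold of at least 2 and an adjusted p of at most 0.05. Counts at an unadjusted p of at most 0.05 were made for members and list genes only and have no background over all tested genes. A permutation test of 3 against 3 libraries cannot go below a two-sided p of 0.1 and was not used. On simulated data for *bli ire1a* against WT (21714 genes), 171 of 200 genes changed by a log2 of 1.5 were called in the right direction, and 4 unchanged genes were called. The 200 were drawn from genes with a mean of at least 1 FPKM, with independent normal noise on the log scale. The 171 therefore does not describe genes with lower values or libraries that vary together.

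The genes named were the 10 members with the highest *bli* level, the 10 with the largest difference of *bli* to WT, members on the lists, up to 5 called members per direction in each tested comparison, genes at the limits of the rule, and members next to each other or of a shared family. *HSFA2*, other non-members, members just short of a call and the examples from the role groups and the members called in both double mutants that lie outside this rule were named after their values were seen. Names, positions and upstream sequence come from RefSeq's TAIR10.1 annotation, which matched 32810 of the 33557 loci (97.8%) and all 117 members. Alternatives were other pseudocounts, filters, scalings and cutoffs, the replicate number as a block, fits of 2 genotypes, other limits of the rule, and leaving out each library.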

Additional observations from a re-analysis of the deposited data

Results flagged for a closer look

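For 8 members the effect of the second mutation in the *bli* background differed between *IRE1A* and *IRE1B*, by the limma test of *bli ire1a* against *bli ire1b* over all tested genes, and each had the lower level in *bli ire1a*. The log2 differences were -4.75 for AT1G21528, -2.94 for *NATA1*, -2.60 for *ADPG1*, -1.61 for AT2G05914, -1.60 for *LAS1*, -1.40 for AT1G54020, -1.34 for *CEP1* and -1.10 for *JAL23*. In all 8, each *bli ire1a* library was below each *bli ire1b* library. AT1G21528 and *ADPG1* were listed at 0 in 2 *bli ire1a* libraries, so their differences depend on the added 0.1. The call of AT1G21528 was lost without *bli ire1a* replicate 2 or 3 or *bli ire1b* replicate 2 or 3. When 1 was added to the FPKM in place of 0.1, 3 of the 8 were called, AT1G21528, *NATA1* and AT2G05914.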

How the results depend on the processing

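For the named members with the largest called differences, no recomputed difference reversed its direction, 276 kept the call and 24 lost it. Counts of members cannot reverse, and of those recomputed 129 stayed within the limits set for a change and 9 moved beyond them. With no fold cutoff, the adjusted p alone placed 23 members above WT and 2 below it for *bli ire1a*, 53 above WT for *bli ire1b*, and 15 with *bli ire1a* below *bli ire1b*. The shares of all tested genes at that cutoff are not given here, so these counts are not set against a background. Adding 1 instead of 0.1 left 17 above WT for *bli ire1b* and 3 with *bli ire1a* below *bli ire1b*, and it ended calls of *NATA1* (1.15, *bli ire1a* against WT), *LAS1*, *ADPG1* and *XTH25*, whose levels are low in WT. A fit of *bli ire1a* and WT alone left 7 above WT. Leaving out 1 library at a time gave 12 to 17 members above WT for *bli ire1a* and 26 to 34 for *bli ire1b*, 0 to 1 below WT for *bli ire1a* (1 without WT replicate 2), 0 below for *bli ire1b*, and for *bli ire1a* against *bli ire1b* 6 to 9 lower and 0 to 1 higher (1 without *bli ire1a* replicate 3). AT1G21528 lost its call between the double mutants without *bli ire1a* replicate 2 or 3, or *bli ire1b* replicate 2 or 3, and against WT in *bli ire1a* *NATA1* lost its call without WT replicate 3 (1.48) or *bli ire1a* replicate 3 (1.26) and *LAS1* without WT replicate 3 (0.83) or *bli ire1a* replicate 1 (1.17) or 2 (0.91). The rule itself gave 58 genes at a limit of 50% of *bli* and 191 at 70%, and 105 to 166 with a library left out. Same-numbered libraries of different genotypes had weak correlations of -0.0967 to 0.0821. Those between mutant genotypes were all positive (0.0312 to 0.0821), and 9 of 12 libraries had their highest mean correlation with their own number. Whether the replicate numbers stand for a pairing was not tested. With the replicate block 13 and 31 members were above WT and 8 had *bli ire1a* below *bli ire1b*. The read totals per library listed by the study were not used in any fit here.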
